A study of Mus musculus with 5 samples.

Results

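The Krüppel-like factors (KLFs) are transcription factors that bind CACCC and GC-rich DNA through a run of zinc fingers at their C terminus, and they are close relatives of the SP factors. Several are switched on rapidly by serum, growth factors or injury, and in fibroblasts and smooth muscle cells they are known as regulators of growth arrest, contractile genes and matrix production. Members differ outside the zinc fingers, where some recruit the corepressors CtBP or SIN3A and others activate transcription. The 10 KLF genes described here (*Klf2*, *Klf3*, *Klf4*, *Klf5*, *Klf6*, *Klf7*, *Klf9*, *Klf10*, *Klf11* and *Klf13*) were chosen by name from the 21835 genes of the deposited table. All 10 have a row in it, and all 10 were expressed highly enough to be tested.

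RNA sequencing compared murine lung cancer-associated fibroblasts (CAFs) carrying an empty lentiviral vector (CAF-vec, 2 samples, labelled as wild-type control) with CAFs made to overexpress miR-200b, miR-200a and miR-429 together (CAF-200, 3 samples). Both were cultured lines infected with lentivirus and kept under drug selection, so each group is a transduced population and no animal, age or strain is given for the samples. The labels name a vector with neomycin resistance, whereas the methods name hygromycin resistance. For the miR-200 vector the methods name normal lung fibroblasts as the infected cells, whereas the results of the study and the sample titles name CAFs. The methods also state RNA in triplicate, while the labels and the table hold 2 CAF-vec samples, so every CAF-vec value rests on n = 2. Nothing states that the samples of a group came from separate cultures, so *p* values measure the spread between these samples, which may be technical.

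Values are CPM, read counts that the authors scaled to a common total, and each column summed to between 999956 and 1000111 CPM, so the totals do not show the depth of each sample. The commonest low value, which may be that of 1 read, was 0.0186 CPM for CAF-vec 1, whereas the other 4 samples had 0.0098 to 0.0105 CPM, which would make CAF-vec 1 the shallowest. Most low values were not whole multiples of it, though the check used the rounded value and can miss some, so the depth remains unknown. Fold-changes are differences of mean log2(CPM + 0.5), CAF-200 against CAF-vec, which understates the change of low genes. Genes were tested with limma across 12175 genes, those that reached 0.5 CPM in 2 or more samples, and a gene was called at a Benjamini-Hochberg adjusted *p* under 0.01. Over all genes tested, log2 values differed with an SD of 0.49 from 1 CAF-vec sample to the other, and of 0.19 to 0.20 within pairs from CAF-200. The fit pools 1 spread over both groups, so standard errors, intervals and *p* values may be too small where the CAF-vec samples differ widely. In the table, 0 genes were at 0 in only 1 or 2 of the CAF-200 samples, against 1205 at 0 in 1 of the 2 CAF-vec samples, and how the CAF-200 values came to share their zeros is not given in the sources used here. The spread within CAF-200, which enters every test, may therefore not be that of separately processed libraries. Of 10 fibroblast markers, all reached 0.5 CPM, and summed to between 8876 and 15408 CPM in CAF-vec and between 8416 and 9091 CPM in CAF-200. Within this list the matrix genes *Dcn* and *Lum* and the surface marker *Thy1* rose, by 2.75, 2.82 and 1.46 in log2 fold-change (limma adjusted *p* = 0.000837, 0.000929 and 0.0029), and the other 7 were not called. Of all genes tested, 4.45% were called higher and 5.57% lower. The list split, with 5 fold-changes above 0 and 5 below, the lowest that of *Col1a1*, at 4613 and 2003 CPM in CAF-vec against 1719, 1599 and 1543 CPM in CAF-200 (log2 fold-change -0.91, limma adjusted *p* = 0.0982). The epithelial list summed to at most 0.0593 CPM in any sample, with *Krt18*, *Nkx2-1* and *Sftpc* at 0 throughout. The endothelial list summed to at most 1.06 CPM, and in the leukocyte list *Adgre1* and *Cd3e* were at 0 throughout. Markers of other cells moved as well. The smooth muscle list (3 genes, 2 of them reaching 0.5 CPM) summed to 3.82 to 5.15 CPM with the vector and 28.4 to 32.3 CPM with the miRNAs, through *Cnn1*. The mesothelial list (3 genes, 1 reaching 0.5 CPM) summed to 5.92 to 6.98 CPM with the vector and 1.11 to 1.62 CPM with the miRNAs, through *Msln*. The leukocyte list (5 genes, 2 reaching 0.5 CPM) summed to 3.36 to 7.004 CPM and 9.91 to 10.5 CPM, through *Lyz2*, while *Cd68* overlapped between the groups (log2 fold-change -0.14) and *Ptprc* was at most 0.0404 CPM. Their part in the KLF values was not tested. In bulk RNA, fewer cells of a type and less RNA per cell cannot be told apart. The miRNAs themselves have no row in this mRNA table. *Zeb1*, a known miR-200 target, was 43.5 and 50.7 CPM in CAF-vec against 37.8, 37.5 and 34.1 CPM in CAF-200 (log2 fold-change -0.36, limma adjusted *p* = 0.0504), which left the groups apart but short of the threshold. *Zeb2*, another, overlapped, with 46.2 and 29.8 CPM in CAF-vec against 31.9, 31.8 and 31.1 CPM in CAF-200 (log2 fold-change -0.23, limma adjusted *p* = 0.374).

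The overexpressed miRNAs recognize mRNAs mainly through their seed, bases 2 to 8. Their mature strands are shown because miR-200b and miR-429 share 1 seed, while that of miR-200a differs by 1 base. The sequences come from RefSeq (GRCm38.p6), where the cluster lies on the minus strand of chromosome 4, and capitals mark the seed.
mmu-miR-200b-3p: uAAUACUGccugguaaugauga
mmu-miR-429-3p: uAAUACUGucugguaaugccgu
mmu-miR-200a-3p: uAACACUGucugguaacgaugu

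In the longest annotated 3′-UTR of each gene (GENCODE M21, GRCm38), 7 of the 10 KLFs held a match to at least 1 of these seeds. *Klf3*, *Klf4*, *Klf9* and *Klf10* held 1 match each to the seed shared by miR-200b and miR-429 (in DNA letters, CAGTATT), and *Klf3*, *Klf5*, *Klf6*, *Klf9* and *Klf11* 1 each to that of miR-200a (CAGTGTT). *Klf2*, *Klf7* and *Klf13* held neither. Among the 12060 genes tested that have an annotated 3′-UTR, 30.3% held a match to at least 1 seed, and the share was 40.7% among the 7649 whose 3′-UTR is within the length range of the KLFs, 737 to 6266 bases. The median 3′-UTR was 2718 bases for the KLFs, 1174 bases for the 12060 genes and 1819 bases for the 7649, so neither set matches the KLFs in length. The same 7 genes held a match when every annotated 3′-UTR was searched. A match of these letters is a description of the annotation, not a site shown to be used.

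The matches of the 2 KLFs that changed, and the 2 matches followed by an A, the longest form of seed pairing found here, are shown with 12 bases before and 4 after the match, which is in capitals.
Klf4: ggagagagagttCAGTATTtttt
Klf10: gacttttgctaaCAGTATTtctt
Klf9: tttatttttgtaCAGTATTagtg
Klf6: caacttgactgtCAGTGTTaaaa

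The match in *Klf4* lies 45 to 51 bases after the stop codon (chr4:55528074-55528080, minus strand), and the one in *Klf10* 1235 to 1241 bases after it (chr15:38294664-38294670, minus strand). In *Klf9* the match shown lies at 3078 to 3084 (chr19:23167990-23167996, plus strand), and in *Klf6* at 1523 to 1529 (chr13:5868806-5868812, plus strand). All 4 stretches are 3′-UTR sequence of the annotated transcripts.

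**Figure D1:**
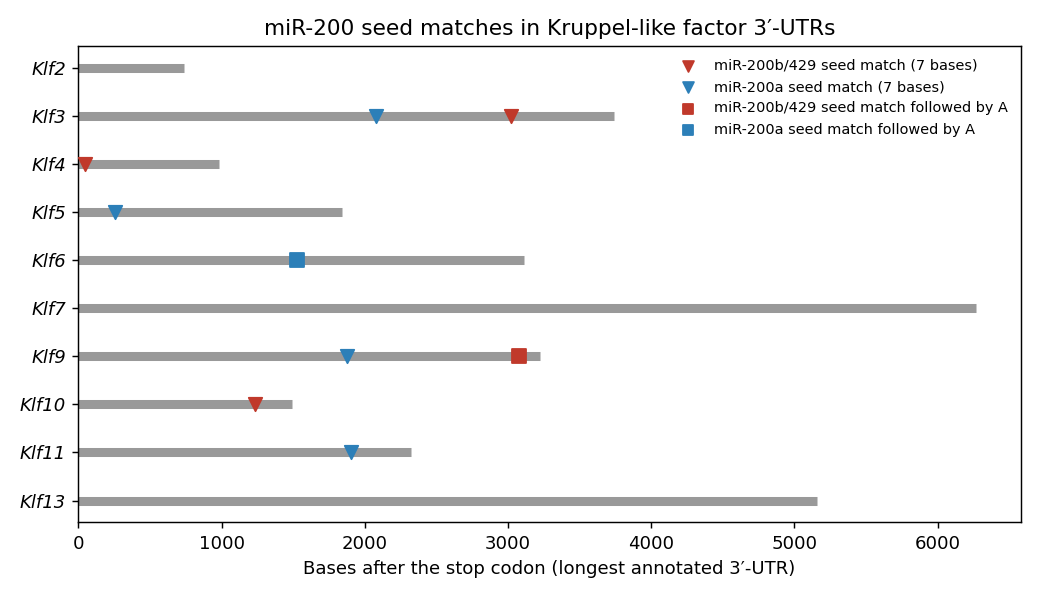
Longest annotated 3′-UTR of each KLF gene (grey bars, in bases after the stop codon) with matches to the miR-200b and miR-429 seed (red) and of miR-200a (blue), as triangles, or as squares where an A follows the match. Matches lie in 7 of 10 genes, and the longest 3′-UTR, 6266 bases in *Klf7*, holds none.

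Of the 10 KLFs, 1 fell and 1 rose in CAF-200. *Klf4* fell by 0.89 on the log2 scale, to 0.536 of its CAF-vec level, and *Klf10* rose by 1.32, to 2.54 times its CAF-vec level. Among all genes tested, 5.57% were called lower and 4.45% higher at the same threshold, so 1 gene in each direction is no result about the family. At a log2 fold-change beyond 1 as well, *Klf10* passed, as did 2.37% of all genes, and none of the 10 was lower, against 2.35% of all genes. By limma, 3 KLFs were lower and 2 higher at an unadjusted *p* under 0.05, near the 27.6% and 17.3% of all genes. The median log2 fold-change was -0.01 over the 10 KLFs and -0.09 over all genes tested. After centring each sample on its median, which moved the median of all genes to 0.0027, that of the KLFs was 0.085. The KLF median was -0.23 without CAF-vec 1 and 0.17 without CAF-vec 2. It was 0.010, 0.017 and -0.11 without CAF-200 1, 2 and 3 in turn, and 0.058 with quantile normalization, so its sign is undecided.

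**Figure D2:**
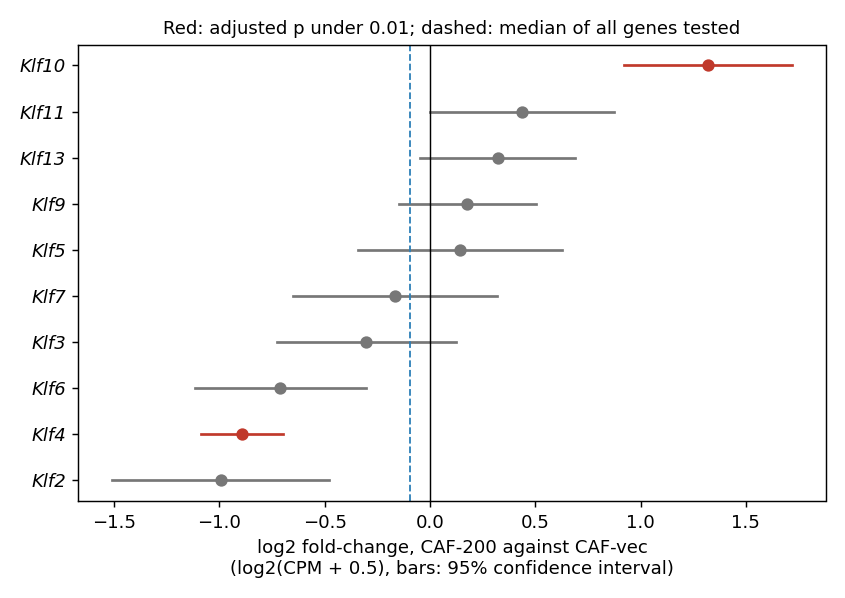
Log2 fold-change of each KLF, CAF-200 against CAF-vec, with its 95% confidence interval from limma. *Klf4* (-0.89) and *Klf10* (1.32), in red, had an adjusted *p* under 0.01, and the dashed line marks the median of all genes tested (-0.09).

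*Klf2*, *Klf4* and *Klf6* are the KLFs best known as rapidly induced genes of stromal and vascular cells. *Klf4* (ENSMUSG00000003032, chromosome 4 of GRCm38, 55527143 to 55532466, minus strand) encodes a factor that can reprogram cells to pluripotency and represses contractile genes in smooth muscle. It was 74.4 and 72.1 CPM in CAF-vec against 38.6, 39.7 and 39.5 CPM in CAF-200. The groups were far apart and each was tight, with means of 73.3 ± 1.61 CPM (SD, n = 2) and 39.3 ± 0.566 CPM (SD, n = 3). The log2 fold-change was -0.89 (standard error 0.0782, 95% confidence interval -1.09 to -0.70, limma adjusted *p* = 0.00284), lower in 3 of 3 CAF-200 samples. Of all genes tested, 5.45% had a lower fold-change. *Klf4* and *Klf6* are among the genes for which the study lists RT-qPCR primers. It took some of those genes from the ones lower in these libraries, and whether these KLFs were chosen that way is not stated, so their direction may not be independent of that choice. Without any 1 CAF-200 sample the log2 fold-change stayed between -0.90 and -0.88, while the adjusted *p* rose to between 0.0273 and 0.0291 (limma).

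*Klf2* (ENSMUSG00000055148, chromosome 8, 72319033 to 72321656, plus strand), known for keeping endothelial cells and T cells quiescent, was 188 and 116 CPM in CAF-vec against 78.7, 70.1 and 73.5 CPM in CAF-200. The CAF-200 values were all below the lower CAF-vec value, but the CAF-vec samples differed from each other by 0.70 on the log2 scale. The means were 152 ± 51.1 CPM (SD, n = 2) and 74.1 ± 4.37 CPM (SD, n = 3). Its log2 fold-change of -0.99 was the lowest of the 10 KLFs but had a standard error of 0.208, and with an adjusted *p* of 0.0192 (limma) it did not pass the threshold of 0.01. The 95% confidence interval was -1.51 to -0.48, from a fit that pools 1 spread over both groups. *Klf2* held no seed match.

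*Klf6* (ENSMUSG00000000078, chromosome 13, 5861482 to 5870394, plus strand), a gene induced early after injury and in activated stellate cells of the liver, was 241 and 168 CPM in CAF-vec against 121, 128 and 119.6 CPM in CAF-200. Here too the groups did not overlap and CAF-vec 1 was the highest sample. The means were 204 ± 52.0 CPM (SD, n = 2) and 123 ± 4.75 CPM (SD, n = 3). The log2 fold-change was -0.71 (standard error 0.164, 95% confidence interval -1.12 to -0.30, limma adjusted *p* = 0.0256), which missed the threshold. With a threshold of 0.05, *Klf2*, *Klf4* and *Klf6* would be the 3 KLFs lower in CAF-200, against 18.6% of all genes tested. Without CAF-vec 1 the log2 fold-changes of *Klf2* and *Klf6* were -0.65 and -0.45, and without CAF-vec 2 they were -1.34 and -0.97. Both genes were called in each of these fits, which assume that the lone CAF-vec sample varies like the CAF-200 samples and call 3501 and 6073 of the 12175 genes.

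*Klf10* and *Klf11* were first described as genes induced early by TGF-β, and their proteins repress transcription through SIN3A. *Klf10* (ENSMUSG00000037465, chromosome 15, 38291463 to 38300706, minus strand) was 10.7 and 14.1 CPM in CAF-vec against 30.7, 28.3 and 35.7 CPM in CAF-200. Each CAF-200 sample was well above both CAF-vec samples. The means were 12.4 ± 2.46 CPM (SD, n = 2) and 31.6 ± 3.80 CPM (SD, n = 3). The difference was 1.32 in log2 fold-change (standard error 0.161, 95% confidence interval 0.92 to 1.72, limma adjusted *p* = 0.00523), higher in 3 of 3 CAF-200 samples. Of all genes tested, 98.3% had a lower fold-change. Without any 1 CAF-200 sample its log2 fold-change was 1.23 to 1.39 and its adjusted *p* 0.0295 to 0.0357 (limma), and with no filter on low genes the adjusted *p* was 0.0366. *Klf10*, which rose, and *Klf4*, which fell, each held 1 match to the miR-200b and miR-429 seed.

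*Klf11* (ENSMUSG00000020653, chromosome 12, 24651274 to 24662789, plus strand) was 9.04 and 6.17 CPM in CAF-vec against 10.4, 9.45 and 11.1 CPM in CAF-200. The lowest CAF-200 value was just above the higher CAF-vec value. Its log2 fold-change of 0.44 (95% confidence interval 0.00 to 0.87) did not pass (limma adjusted *p* = 0.111), and without CAF-vec 1 it was 0.70 with an adjusted *p* of 0.00318 and without CAF-vec 2 it was 0.18 with an adjusted *p* of 0.215, in fits that assume the spread of the lone sample. The difference between the fold-changes of *Klf10* and *Klf11* was not tested.

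*Klf9* and *Klf13* encode a pair of related GC-box factors that also recruit SIN3A, and *Klf9* is a target of glucocorticoid and thyroid hormone receptors. *Klf9* (ENSMUSG00000033863, chromosome 19, 23141226 to 23168134, plus strand) was 37.3 and 49.0 CPM in CAF-vec against 47.5, 47.9 and 49.9 CPM in CAF-200. The groups overlapped, since CAF-vec 2 lay among the CAF-200 samples (log2 fold-change 0.18, 95% confidence interval -0.15 to 0.50, limma adjusted *p* = 0.337). *Klf9* held a match to both seeds, including the only match to that of miR-200b and miR-429 followed by an A. Its fold-change depended on the control sample, with -0.02 without CAF-vec 1 and 0.37 without CAF-vec 2, where it was called (limma adjusted *p* = 0.00275). *Klf13* (ENSMUSG00000052040, chromosome 7, 63886351 to 63938915, minus strand) was 9.88 and 13.0 CPM in CAF-vec against 13.6, 13.6 and 15.8 CPM in CAF-200. Each CAF-200 value exceeded both controls by a small margin, with a log2 fold-change of 0.32 (95% confidence interval -0.04 to 0.69, limma adjusted *p* = 0.148). Its fold-change was 0.13 without CAF-vec 1 (limma adjusted *p* = 0.369), and 0.51 without CAF-vec 2, where it was called (limma adjusted *p* = 0.00599).

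*Klf3* (ENSMUSG00000029178, chromosome 5, 64803388 to 64832901, plus strand) encodes a repressor that works through CtBP. It was 128 and 188 CPM in CAF-vec against 121, 130.1 and 127 CPM in CAF-200, so CAF-vec 1 lay among the CAF-200 samples and CAF-vec 2 stood above them. The log2 fold-change was -0.30 (95% confidence interval -0.72 to 0.12, limma adjusted *p* = 0.220). *Klf7* (ENSMUSG00000025959, chromosome 1, 64029447 to 64122282, minus strand), a factor of neuronal differentiation that also restrains fat cell formation, was 17.8 and 28.0 CPM in CAF-vec against 19.0, 19.4 and 21.2 CPM in CAF-200. Its CAF-200 values lay between the CAF-vec values (log2 fold-change -0.17, 95% confidence interval -0.65 to 0.32, limma adjusted *p* = 0.540). Without CAF-vec 1 both were called lower (log2 fold-changes -0.58 and -0.49), while without CAF-vec 2 *Klf3* was -0.02 (limma adjusted *p* = 0.770) and *Klf7* turned to 0.16, neither of them called. *Klf3* shares exonic positions with *Gm20033*, and *Klf7* with *Gm13748* and *Gm26649*, all on the opposite strand. The kit marks strand, but the strand setting of the counting is not given in the sources used here.

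*Klf5* (ENSMUSG00000005148, chromosome 14, 99298691 to 99315036, plus strand), which promotes proliferation and smooth muscle remodelling, was the KLF with the lowest level. It was 4.18 and 5.13 CPM in CAF-vec against 5.08, 4.20 and 6.44 CPM in CAF-200, with overlapping groups and a log2 fold-change of 0.14 (95% confidence interval -0.34 to 0.63, limma adjusted *p* = 0.595). Counting all 10 genes, CAF-200 was wholly below CAF-vec for 3, wholly above it for 3 and overlapped it for 4. Over all genes tested these shares were 37.3% below and 24.3% above.

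**Figure D3:**
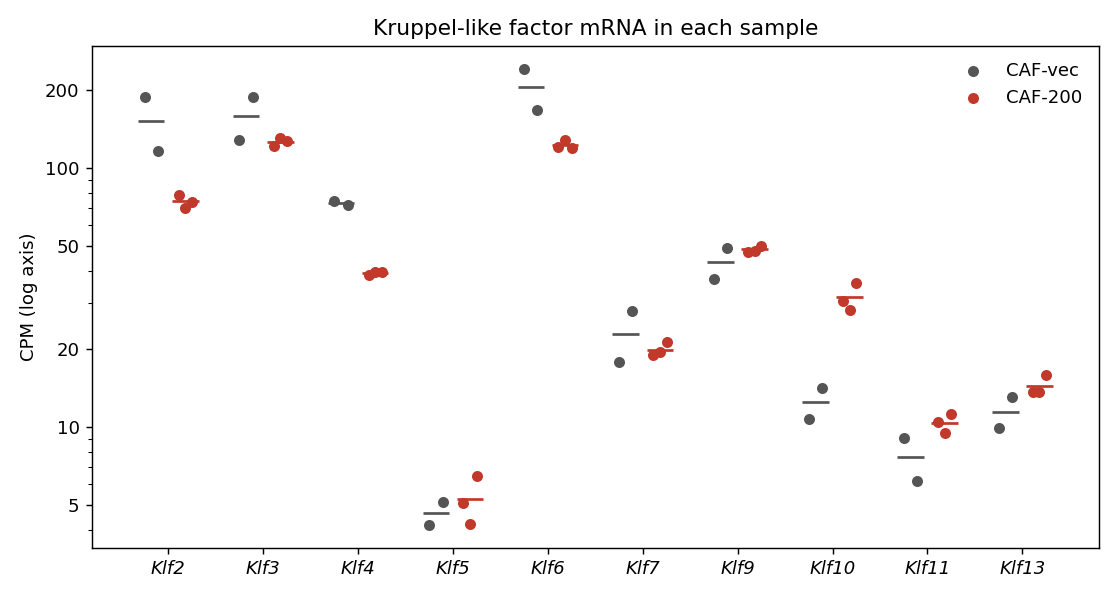
CPM of each KLF in every sample on a log axis, with CAF-vec in grey (2 points), CAF-200 in red (3 points) and a line at each group mean. CAF-200 points are close together, while the CAF-vec points are apart for most genes, as for *Klf2* (188 and 116 CPM), and close for *Klf4* (74.4 and 72.1 CPM).

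The CAF-vec samples did not differ in a single direction. *Klf2*, *Klf4*, *Klf6* and *Klf11* were higher in CAF-vec 1 and the other 6 KLFs in CAF-vec 2. The difference was beyond 0.3 on the log2 scale for 8 of the 10 genes, reached 0.70 for *Klf2*, and was smallest for *Klf4* at 0.04. In CAF-200, the range over the 3 samples was under 0.35 for 9 genes, the exception being *Klf5* at 0.56. The 2 called genes thus include the KLF whose samples differed least within each group, *Klf4*.

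Levels were compared between genes per length, as CPM divided by the kilobases of the longest annotated transcript. In CAF-vec, *Klf2* had the highest level with 82.4 ± 27.7 CPM per kb (SD, n = 2), followed by *Klf6* with 48.4 ± 12.3, *Klf3* with 30.3 ± 8.17 and *Klf4* with 24.2 ± 0.530. *Klf2* lay above *Klf6* in each sample, whereas *Klf3* and *Klf4* were at 24.5 and 24.6 CPM per kb in CAF-vec 1, within their spread. The other 6 genes were all below 10 CPM per kb, from 9.62 ± 1.85 for *Klf9* down to 1.39 ± 0.202 for *Klf5*. *Klf11* (1.86 ± 0.497) and *Klf13* (1.79 ± 0.345) differed by less than their spread. In CAF-200 the means ranked the 10 genes in the same order, with *Klf2* at 40.1 ± 2.36 CPM per kb (SD, n = 3), *Klf6* at 29.1 ± 1.12, *Klf3* at 24.1 ± 0.866 and *Klf4* at 13.0 ± 0.187. *Klf9* and *Klf10*, at 9.62 and 4.08 CPM per kb in CAF-vec, were at 10.8 ± 0.286 and 10.4 ± 1.25 in CAF-200, less than their spread apart. *Klf7* (2.59 ± 0.157) and *Klf11* (2.53 ± 0.209) were likewise within their spread in CAF-200, so their order is undecided there. With the union of all exons as the length, *Klf4* (24.03 CPM per kb in CAF-vec) ranked above *Klf3* (14.1).

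Added up, the 10 KLFs came to 227 and 187 CPM per kb in CAF-vec against 136, 135 and 138 CPM per kb in CAF-200. The group means were 207 ± 28.7 (SD, n = 2) and 136 ± 1.79 (SD, n = 3), a ratio of 0.659 with no overlap. No test was made of this sum. *Klf2*, *Klf4* and *Klf6* together made up 80.8% and 67.7% of it in CAF-vec and 58.7% to 61.5% in CAF-200. The share of *Klf10* was 1.54% and 2.49% in CAF-vec and 7.39%, 6.91% and 8.50% in CAF-200.

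**Figure D4:**
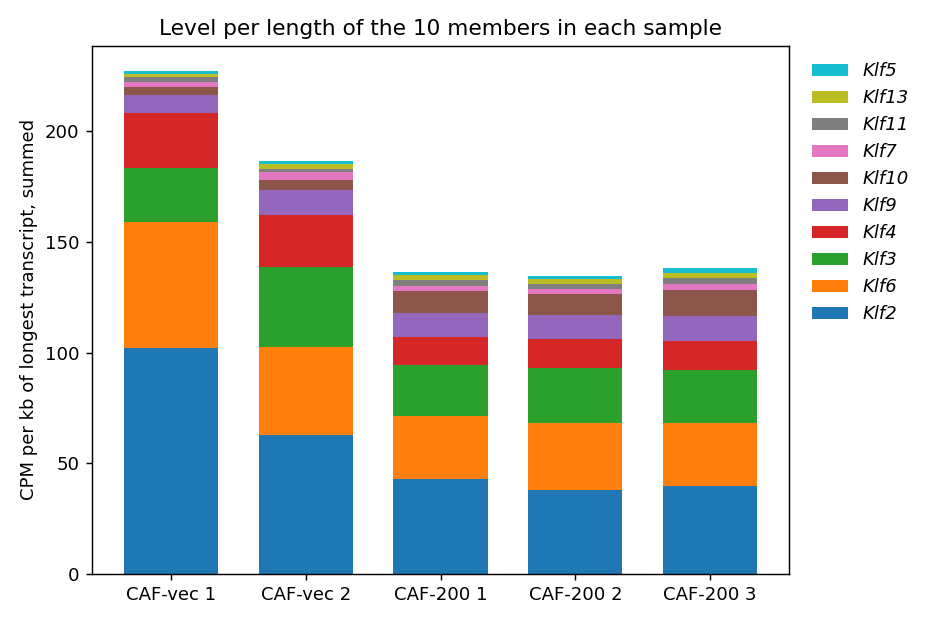
Stacked levels per length (CPM per kb of the longest transcript) of the 10 KLFs in each of the 5 samples. The stacks reach 227 and 187 in CAF-vec and 135 to 138 in CAF-200, with *Klf2* as the largest part of each.

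Of the 7 other KLF genes, only *Klf15* and *Klf16* were expressed highly enough to be tested. *Klf15*, a factor of metabolic and glucocorticoid responses, was 1.90 and 1.99 CPM in CAF-vec against 0.591, 0.672 and 0.534 CPM in CAF-200, and fell by 1.16 in log2 fold-change (limma adjusted *p* = 0.00522). Its levels are close to the added 0.5 CPM, so this understates the change. *Klf16* was 29.3 and 28.3 CPM in CAF-vec against 32.3, 28.1 and 31.1 CPM in CAF-200 (log2 fold-change 0.08, limma adjusted *p* = 0.546). The highest value of *Klf8* was 0.550 CPM, and *Klf14* was listed at 0 in all samples. Of 9 SP factors, 5 were tested and limma called 0, where 4.45% of all genes were called higher and 5.57% lower. At an unadjusted *p* under 0.05 (limma), 1 was higher, *Sp3*, and 0 lower, against 17.3% and 27.6% of all genes. The median log2 fold-change of the 5 was 0.24. All 5 were above 0, as were 5078 of the 12175 genes tested, but all 5 were also lower in CAF-vec 1 than in CAF-vec 2, by 0.34 to 0.69 on the log2 scale, and 4 overlapped between the groups. *Klf8*, *Klf14*, *Klf16* and *Sp3* were named after their values were seen.

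Among 10 corepressors and coactivators that KLFs bind, limma called 0 (2 lower and 0 higher at an unadjusted *p* under 0.05), where 5.57% of all genes were called lower and 4.45% higher (27.6% and 17.3% at that unadjusted *p*), and the median log2 fold-change was -0.05. The CtBP gene *Ctbp1*, the partner of KLF3, was 347 and 219.8 CPM in CAF-vec against 181, 177 and 171 CPM in CAF-200 (log2 fold-change -0.65, limma adjusted *p* = 0.0547). *Sin3a*, the partner of KLF10, was 34.6 and 31.7 CPM in CAF-vec against 34.04, 32.4 and 31.5 CPM in CAF-200. Both were named after their values were seen. Among 6 ubiquitin ligases of KLF proteins limma called 0 (1 lower and 0 higher at an unadjusted *p* under 0.05), with a median of -0.12, to be read against the same shares.

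The kinases MEK5 and ERK5 (*Map2k5* and *Mapk7*) and the MEF2 factors induce *Klf2* and *Klf4* in endothelial cells. Of 6 genes of this path, 1 fell, against 5.57% of all genes, and 4 were lower and 0 higher at an unadjusted *p* under 0.05, against 27.6% and 17.3%. The gene that fell was *Mef2d*, which went from 69.8 and 55.8 CPM in CAF-vec to 36.7, 35.0 and 38.0 CPM in CAF-200 (log2 fold-change -0.76, limma adjusted *p* = 0.00904). *Mef2c* was 12.8 and 19.5 CPM in CAF-vec against 8.20, 7.42 and 8.46 CPM in CAF-200 (log2 fold-change -0.94, limma adjusted *p* = 0.0173), and *Mapk7* stood at -0.47 (log2 fold-change, limma adjusted *p* = 0.0317). Both of these missed the threshold, as did *Map2k5* (-0.27), *Mef2a* (0.19) and *Map3k3* (0.13). The 5 that were not called were named after their values were seen. The median of the 6 genes was -0.37.

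Of 15 genes known to be regulated by KLFs, 13 were tested, 5 rose and 0 fell (1 was lower and 6 were higher at an unadjusted *p* under 0.05, limma, against 27.6% and 17.3% of all genes), where 4.45% of all genes were called higher and 5.57% lower. The list was chosen with earlier results of these data known, so this count is not independent evidence. *Tagln* and *Acta2*, contractile genes that KLF4 represses in smooth muscle, rose by 2.94 and 2.63 in log2 fold-change (limma adjusted *p* = 0.00182 and 0.00123). *Acta2* went from 92.8 and 126 CPM in CAF-vec to 661, 653 and 706 CPM in CAF-200. *S1pr1*, a sphingosine-1-phosphate receptor gene that KLF2 activates in T cells, rose from 5.85 and 6.60 CPM to 20.9, 19.5 and 21.1 CPM (log2 fold-change 1.65, limma adjusted *p* = 0.00145). *Thbd*, which KLF2 activates in endothelial cells, was 153 and 136 CPM in CAF-vec against 124, 123 and 138 CPM in CAF-200 and was not called (limma adjusted *p* = 0.229). *Nos3* and *Cdh1* were too low to be tested. *Smad7*, a feedback inhibitor of TGF-β signalling that KLF10 represses, rose from 35.8 and 41.7 CPM to 80.4, 92.8 and 89.5 CPM (log2 fold-change 1.17, limma adjusted *p* = 0.00321). *Tgfbr1*, the fifth gene called, stood at 0.81 (log2 fold-change, limma adjusted *p* = 0.00505). *Thbd*, *Nos3*, *Cdh1*, *Tgfbr1*, *Cnn1*, *Des* and *Myh11* were named after their values were seen. The smooth muscle marker *Cnn1* moved with *Tagln* and *Acta2*, from 3.38 and 4.35 CPM to 32.0, 29.1 and 27.7 CPM, while *Des* overlapped between the groups (log2 fold-change 0.02, limma adjusted *p* = 0.951) and *Myh11*, which defines mature smooth muscle, was at most 0.0692 CPM.

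**Figure D5:**
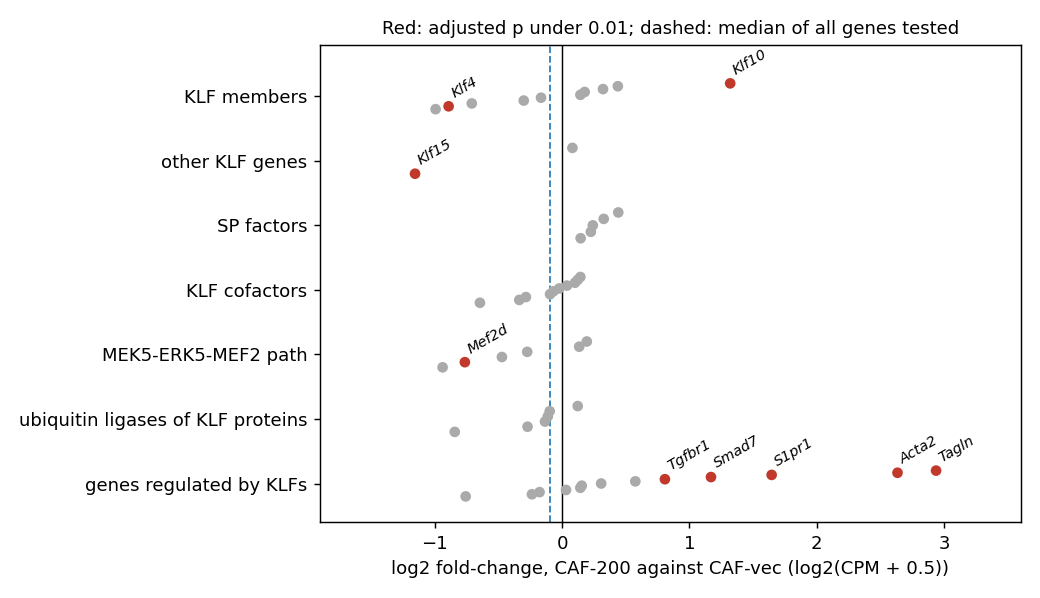
Log2 fold-change of the tested genes of each list, CAF-200 against CAF-vec, with genes at an adjusted *p* under 0.01 in red and named, and the median of all genes tested (-0.09) as a dashed line. The 10 KLFs lie between -0.99 and 1.32, and the 5 called genes regulated by KLFs all lie above 0.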

How the data were processed

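The authors deposited normalized CPM values, in a table named for TMM scaling, and all 5 sample columns were used. FastQC, cutadapt, Trimmomatic, STAR, RSEM and edgeR with GRCm38/mm10 are named in the submitters' processing notes, without versions. Of the low CPM values, 18.8% to 49.5% per sample were whole multiples of the commonest one, within 0.05. That value was rounded for this check, which can lower these shares. Whole reads were not recovered, and no count test was run. Of the genes, 21795 of 21835 were named from GENCODE M21 by Ensembl identifier.

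The groups were compared by limma 3.58.1 after taking log2(CPM + 0.5) (lmFit and eBayes with a variance trend) in R 4.3.3, with Benjamini-Hochberg adjustment over 12175 genes. The fit was tested on simulated data. The genes named are the 10 KLFs, and in each list those at an adjusted *p* under 0.01, or the 4 with the largest change where more passed in a direction, beside the check genes *Zeb1* and *Zeb2*. Genes named outside this rule are marked in the text, except the cell type markers, which were given to describe their lists. The members and lists were chosen with earlier results of these data known. Seed matches were searched in the transcripts of GENCODE M21 after the stop codon. Alternatives were another pseudocount, filter, scaling, variance model or threshold, each sample left out, and the replicate number as a block. Python 3.11.15 with pandas 2.3.3, numpy 2.4.6 and matplotlib 3.10.9 was used otherwise.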

Additional observations from a re-analysis of the deposited data

How the results depend on the processing

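The direction of *Klf2*, *Klf3*, *Klf4*, *Klf6*, *Klf10*, *Klf11* and *Klf13* was kept under all 13 alternatives run for each, although *Klf3* came to -0.02 without CAF-vec 2, and over these *Klf4* ranged from -0.91 to -0.80 and *Klf10* from 1.12 to 1.52 (log2 fold-change). Of the KLFs called, the 1 lower became 3 with an adjusted *p* threshold of 0.05. The replicate block left 0 (3 had an unadjusted *p* under 0.05), and omitting each sample in turn gave 0 to 5. For the 1 higher, 0 were left when the low genes were kept (21835 tested) and 0 by the replicate block (1 had an unadjusted *p* under 0.05), and omitting each sample gave 0 to 3. Requiring a log2 fold-change past 1 as well, 0 were lower, which became 1 when that limit was 0.5 and ranged from 0 to 1 over the omitted samples. The 1 higher by both criteria became 0 when low genes were kept, 0 by the replicate block and 0 to 1 over the omitted samples. *Klf5* turned to -0.0029 with the replicate block and without CAF-200 3, *Klf7* to 0.16 without CAF-vec 2 and *Klf9* to -0.0187 without CAF-vec 1, none of them called with all samples. Over the omitted samples *Klf5* ranged from -0.0029 to 0.28, *Klf7* from -0.49 to 0.16 and *Klf9* from -0.0187 to 0.37.

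The replicate numbers 1 and 2 exist in both groups. Deviations from the group means correlated at 0.25 and 0.13 between same-numbered samples. Between CAF-vec 1 and CAF-200 2, and CAF-vec 2 and CAF-200 1, they correlated at -0.13 and -0.25. The deviations of 2 CAF-vec samples mirror each other, so these values cannot show whether same-numbered samples were handled together. With the replicate block, which leaves CAF-200 3 out of the fold-change, *Klf4* was -0.90 (adjusted *p* = 0.0238, limma) and *Klf10* 1.23 (adjusted *p* = 0.0181), and over all genes 171 were called against 1220. Without 1 CAF-200 sample, at most 1 gene of all was called, with 3821 to 4065 at an unadjusted *p* under 0.05. Tests with edgeR and DESeq2 were not run, since whole reads were not recovered. The cause of these changes was not tested. The unknown depth limits what can be said of the lowest genes.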

Other observations

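*Vhl*, 1 of the ubiquitin ligases above, was 68.3 CPM in CAF-vec 1 and between 20.1 and 20.6 CPM in the other 4 samples. Chosen after its values were seen, it shows a difference between the CAF-vec samples larger than that of any of the 10 KLFs. In the deposited table, 6127 genes were at 0 in all CAF-200 samples. None of the 10 KLFs was at 0 in any sample.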
